A study of Mus musculus with 6 samples.

Results

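Z-disc, titin and M-band genes of striated muscle were followed in the ventricles of mouse embryos that lack, by their labels, the estrogen-related receptors alpha and gamma in the heart. The members were all table rows whose gene symbol is on a list of 39 genes, with transcript counts summed per symbol. The list covers titin and its partners, the M-band, the Z-disc, the desmin filaments at the Z-disc, and the chaperones and ligases that look after these proteins. All 39 were among the 19245 symbols of the table, and 38 passed the filter on low counts. Ankrd2 did not pass it.

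RNA was sequenced from both ventricles of C57BL/6 embryos at embryonic day 17.5. The 3 control libraries came from embryos with floxed Esrra and Esrrg alleles and no Cre recombinase. The 3 libraries labelled knockout came from embryos with the same floxed alleles and Cre driven by the Nkx2-5 promoter, which is active in cardiac progenitors. Each library pooled 2 hearts. Every control carries the floxed alleles too, and Cre was present in 1 group only, so effects of Cre itself and of the deletions cannot be told apart. The labels do not say how the pooled hearts were assigned to litters, so p-values measure only the spread between these pooled libraries.

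The sarcomere is the contractile unit of striated muscle. Thin actin filaments are anchored in Z-discs at its ends, thick myosin filaments are cross-linked at the M-band in its middle, and the giant protein titin runs from Z-disc to M-band as a molecular spring. Z-discs and the elastic part of titin also hold signalling proteins that respond to stretch, and desmin filaments tie neighbouring Z-discs to each other and to the cell membrane. Before birth the heart uses other isoforms of several of these proteins than the adult heart. The receptors alpha and gamma are nuclear receptors without a known natural ligand, known to control genes of mitochondria and of heart muscle maturation.

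Gene totals were 12807218 to 32663845 estimated counts per library, highest in knockout replicate 1. That library stood apart: by chi-square per degree of freedom over genes it differed from the other labelled knockouts by 9.78 and 9.92, where the remaining pairs within a group differed by 2.81 to 3.91. The share of reads in exons was 35.5% to 37.1% in controls and 37.6% to 40.6% in labelled knockouts, and that in introns 36.6% to 38.8% and 39.3% to 42.1%. The label check was mixed: Esrra fell from 75.8 ± 6.56 to 42.9 ± 1.63 CPM (counts scaled to library size; SD, n = 3 per group), while Esrrg rose from 81.7 ± 2.07 to 115.6 ± 5.29 CPM. Exons outside the deleted part are counted too, so this check does not see the floxed exons by themselves. Because Esrrg went against the label, the libraries are called labelled knockout throughout. Nkx2-5, whose promoter drove Cre, was at 69.1 ± 4.4 CPM in controls and 53.7 ± 3.9 CPM in labelled knockouts, without overlap. Its part in the results below was not tested. The libraries also differed in the sex of their hearts: the summed level of 4 Y-linked genes was 0.0567 and 0.167 CPM in control replicates 1 and 3 and 112.2 CPM in control replicate 2, against 145.6 to 323.9 CPM in the labelled knockouts. Xist was at 0.949 CPM in knockout replicate 1 alone and at 1170 to 2372 CPM in the other libraries. Results that lose their call with the Y-linked level as a covariate, or with control replicate 2 and knockout replicates 2 and 3 alone (the libraries of mixed sex), are given with that value. Markers of heart muscle cells summed to 46309 to 49962 CPM in controls and 33500 to 37273 CPM in labelled knockouts, with 9 of 10 lower and none at 0. Smooth muscle and pericyte markers summed to 1544 to 1639 against 3400 to 3625 CPM, with 3 of 10 higher, 2 lower and 5 without a call. Acta2 carried most of that sum (837 ± 29.6 against 2741.3 ± 83.6 CPM, SD, n = 3 per group), and without it the list summed to 731.9 to 770.9 against 737.5 to 863 CPM. Cnn1 and Tagln also rose, with log2 fold changes of 1.28 and 1.44, and Rgs5 (-0.97) and Pdgfrb (-0.25) fell. Myh11 had a log2 fold change of 0.015 and no call. Fibroblast markers summed to 5309 to 5602 against 7451 to 8643 CPM, with 10 of 10 higher, and no marker of either list was at 0. The median log2 fold change of the 10 heart muscle markers was -0.53. Of 8 atrial markers 4 rose and 4 had no call. The list summed to 1029 to 1119 CPM in controls and 2834 to 3442 CPM in labelled knockouts. Nppa was at 278.7 ± 22.4 against 1706.4 ± 312.5 CPM (SD, n = 3 per group), and without it the list summed to 733.1 to 865.2 against 1386 to 1529 CPM. Within this rest Myl7 was at 184.1 ± 24.3 against 653.9 ± 39.8 CPM. Of 7 fast skeletal muscle markers tested 6 rose and 1 fell, and the sum of the list was 1716 to 1906 against 1264 to 1576 CPM. Ckm, which heart muscle also makes, was nearly all of that sum and fell, and the rest summed to 10.35 to 11.95 against 19.96 to 36.37 CPM. Epicardial markers summed to 139.3 to 151.7 against 182 to 194.2 CPM (4 of 7 higher), macrophage markers to 78.4 to 89.6 against 106.4 to 114.4 CPM (4 of 10 higher, 1 lower), and endothelial markers to 1163 to 1236 against 1046 to 1078 CPM (2 of 10 higher, 7 lower). The part of these shifts in the results below was not tested. In bulk tissue, fewer cells of a type and less RNA per cell cannot be told apart.

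Most of the members differed between the groups, in both directions. In edgeR's quasi-likelihood fit, with p-values adjusted over 14290 genes by Benjamini and Hochberg, 30 of the 38 members tested were called at an adjusted p under 0.05, where 44.4% of all genes tested were called. Of the 30, 14 rose (22.4% of all genes did) and 16 fell (22% of all genes did). The groups did not overlap in 31 of the 38, where 53.7% of all genes did not overlap. Calls of at least 2-fold were few: Ankrd1, Trim54 and Synm rose and Myom3 and Xirp2 fell by that much, 5 of 38, where 5.85% of all genes did. The median log2 fold change of the members was -0.004, beside 0.008 over all genes, and the range was -1.88 to 1.48. The plot of log2 fold changes by compartment shows that rises and falls occurred side by side in 6 of the 9 compartments, while the Xin and filamin genes and the chaperones held falls and the MuRF ligases held rises.

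**Figure D1:**
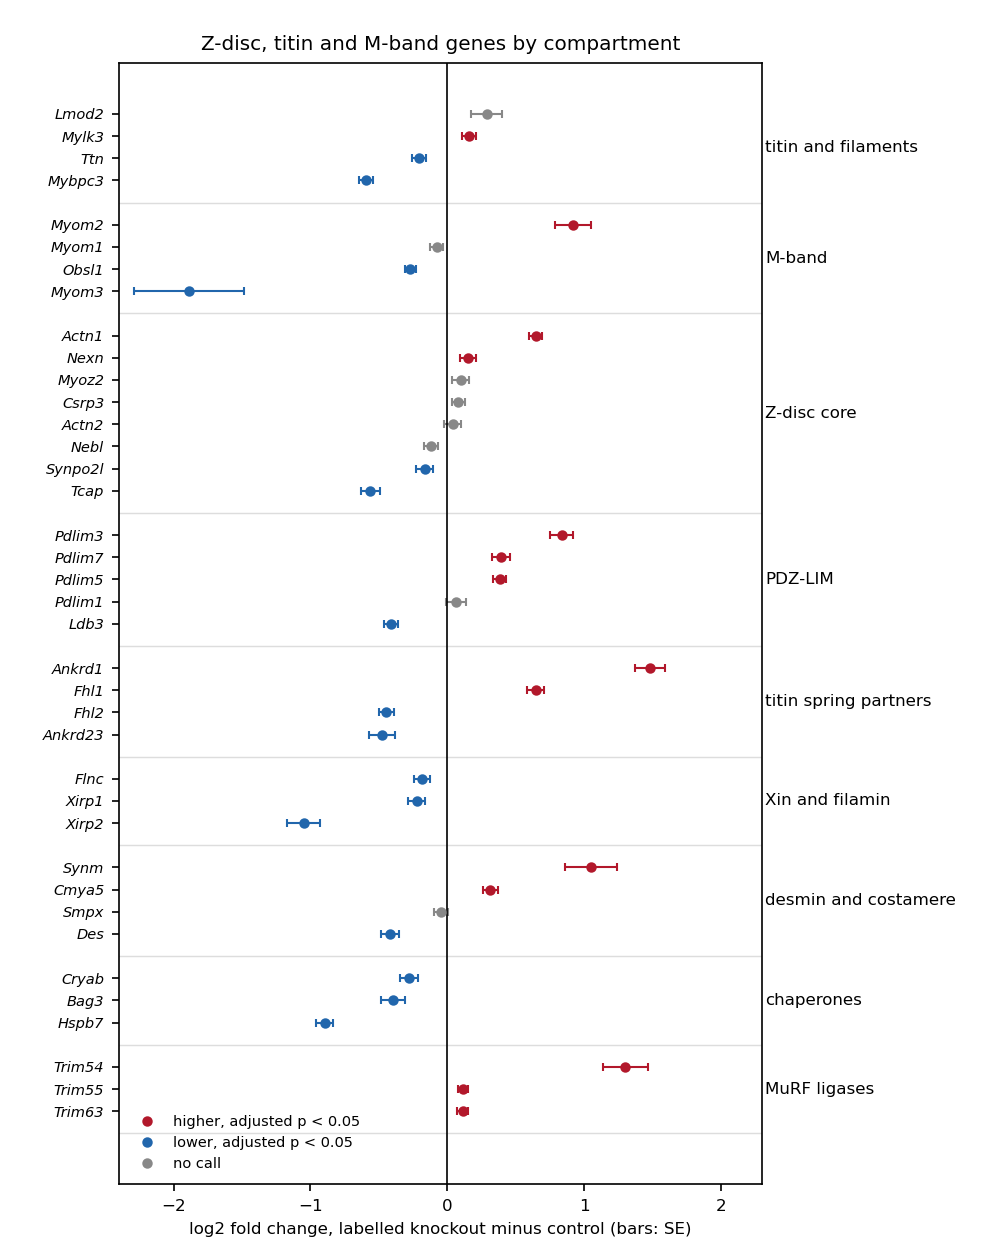
Log2 fold change (labelled knockout minus control, x axis) of the 38 members tested, grouped by compartment; points are edgeR estimates from 3 against 3 libraries and bars are 1 SE. Red points rose and blue points fell at an adjusted p under 0.05, and grey points had no call; Ankrd1 is at 1.48 and Myom3 at -1.88.

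Per length, the members spanned a wide range of levels. Levels between genes are given as RPKM (reads per kilobase of transcript, scaled to library size), the authors' values summed over the transcripts of a gene, and are read only within a group. In controls Ttn was the highest at 362.7 ± 7.82 RPKM (SD, n = 3), followed by Mybpc3 at 299.7, Csrp3 at 274.4, Actn2 at 166.1, Cryab at 132.3, Ankrd1 at 117.4 and Smpx at 113.2 RPKM. Xirp2 at 0.693, Synm at 0.506, Trim54 at 0.378, Myom3 at 0.0804 and Ankrd2 at 0.0394 RPKM were the lowest. Of the 38 pairs of neighbours in this order, 16 overlapped over the control libraries, among them Cryab with Ankrd1 and Ankrd1 with Smpx, and 22 did not. Ankrd1 ranked 6 by its control mean. In labelled knockouts it was at 346.5, 333.4 and 410.1 RPKM beside 338.2, 344.8 and 358.1 RPKM for Ttn, so that it was the highest member in 2 of the 3 libraries and both overlapped.

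**Figure D2:**
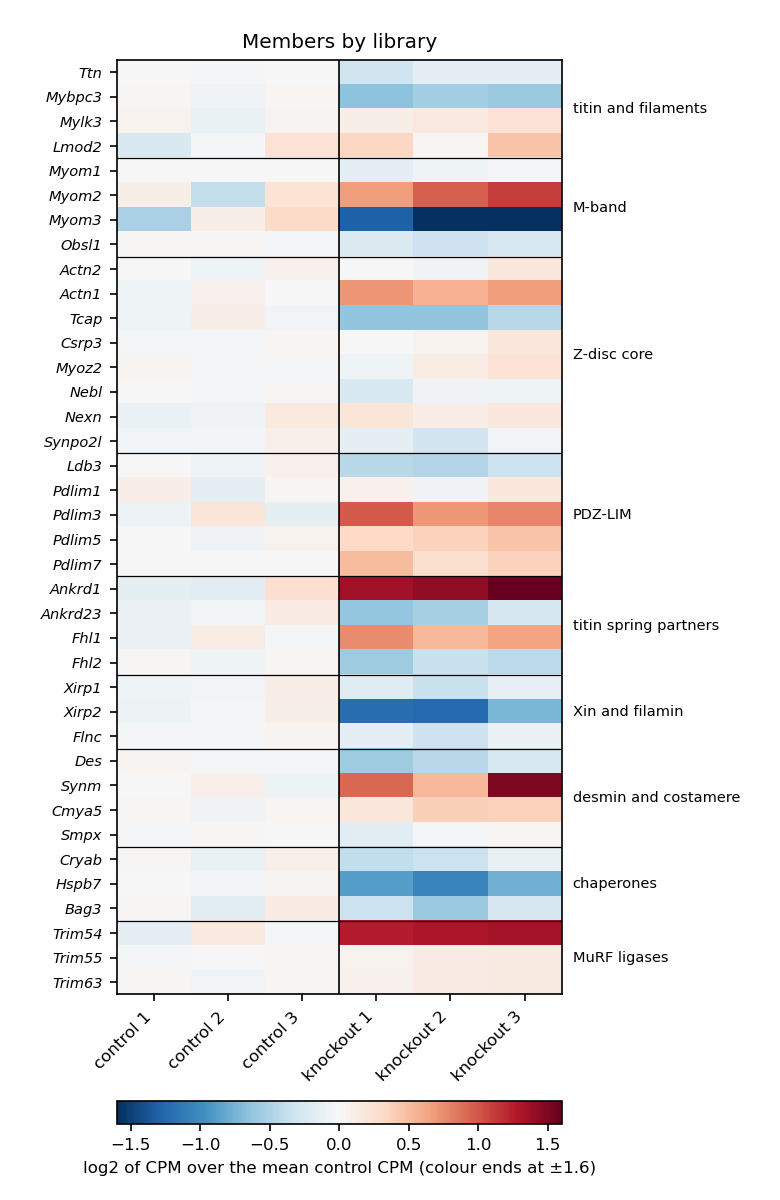
Level of each member tested in each of the 6 libraries, as the log2 of its CPM over the mean control CPM (colour scale, ending at 1.6 in either direction), with compartments divided by lines. The 3 labelled knockout columns are alike for most members, with knockout replicate 3 standing apart for Synm, at 29.4 CPM.

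Titin and the filament proteins held 1 rise and 2 falls among 4 genes, where 22.4% of all genes rose and 22% fell. The median log2 fold change of these 4 genes was -0.02. Ttn, the spring and ruler of the sarcomere (mm10 chromosome 2, 76703984 to 76982547, minus strand), was at 93174, 91782 and 93158 CPM in control replicates 1 to 3, against 74501, 83015 and 83404 CPM for labelled knockouts. The groups did not overlap, and knockout replicate 1 was the lowest. Ttn fell (log2 fold change -0.21, SE 0.0496, edgeR adjusted p 0.0044), but lost its call at an adjusted p of 0.0668 once the Y-linked level was a covariate. Ttn alone took up 9.10% to 9.12% of all gene counts of a control library and 7.65% to 8.43% of a labelled knockout library. The other 38 members together took up 1.56% to 1.64% and 1.56% to 1.69%.

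Mybpc3, the cardiac myosin-binding protein C of the thick filament, was at 3529, 3347 and 3546 CPM in controls and 2206, 2392 and 2310 CPM in labelled knockouts. All labelled knockouts lay far below all controls, and Mybpc3 fell (log2 fold change -0.59, SE 0.0487, edgeR adjusted p 6.56e-07). Mylk3, the cardiac kinase of the myosin regulatory light chain, was at 395, 355 and 392 CPM against 407, 423 and 445 CPM. The groups were close but did not overlap, and Mylk3 rose (log2 fold change 0.16, SE 0.0514, edgeR adjusted p 0.0235). Its call was lost without control replicate 2, at an adjusted p of 0.102, and without knockout replicate 3, at 0.108, and its log2 fold change was 0.29 in the libraries of mixed sex. Lmod2, a leiomodin that lengthens thin filaments, was at 46.5 to 64.4 CPM in controls and 55.7 to 75.6 CPM in labelled knockouts. These groups overlapped and Lmod2 had no call. Its edgeR adjusted p of 0.06 became 0.0115 without control replicate 3 and 0.00765 without knockout replicate 2.

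The M-band genes moved apart from each other. Myom2, known as the myomesin of adult heart and fast muscle, was at 313, 224 and 342 CPM in controls and 467, 568 and 629 CPM in labelled knockouts. The lowest labelled knockout lay above the highest control. Myom2 rose (log2 fold change 0.92, SE 0.131, edgeR adjusted p 9.4e-05), and its log2 fold change was 1.38 with the Y-linked level as a covariate and 1.42 in the libraries of mixed sex. Myom3, a myomesin known from slow skeletal muscle, was scarce: 15, 17 and 27 counts in controls and 17, 3 and 3 counts in labelled knockouts, or 0.869, 1.34 and 1.54 against 0.507, 0.201 and 0.152 CPM. Every labelled knockout was below every control in CPM, and Myom3 fell (log2 fold change -1.88, SE 0.402, edgeR adjusted p 0.00204); the value was -2.89 in the libraries of mixed sex. Obsl1, which links myomesin and titin, was at 274, 274 and 265 CPM against 231, 216 and 226 CPM. It fell without overlap (log2 fold change -0.27, SE 0.0397, edgeR adjusted p 0.000115).

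Myom1, the main myomesin that cross-links titin and myosin, had no call as a gene. It was at 1576, 1593 and 1600 CPM in controls and 1434, 1520 and 1564 CPM in labelled knockouts (log2 fold change -0.08, SE 0.0465, edgeR adjusted p 0.197). Within the myomesins, the share of Myom1 in the summed RPKM was 83.1% ± 2.98 in controls and 71.2% ± 2.13 in labelled knockouts, and that of Myom2 was 16.9% ± 2.98 and 28.7% ± 2.14 (SD, n = 3 per group). The shares did not overlap, with an exact two-sided permutation p of 0.1, the smallest that 3 against 3 libraries allow. From the most abundant transcript of each gene alone, the difference in the share of Myom2 was 21.7 percentage points instead of 11.9. For Myom1 this was the longer form described below, which itself fell. The larger difference thus includes the shift between the Myom1 forms.

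Myom1 was the 1 gene of 18 with several counted transcripts in which 1 transcript rose and another fell. The longer form NM_010867 (5613 bases, 38 exons) had 16941, 12842 and 15999 estimated counts in controls and 23260, 10927 and 13364 in labelled knockouts. The shorter form NM_001083934 (5319 bases, 37 exons) had 10254, 7425 and 12137 against 24829, 11777 and 17516. By edgeR on 21591 transcripts, of which 22.7% were called, the longer form fell (log2 fold change -0.47, SE 0.0517, adjusted p 0.000798). The shorter form rose (log2 fold change 0.37, SE 0.0873, edgeR adjusted p 0.0229). The call of the shorter form was lost without control replicate 1, control replicate 2, knockout replicate 2 or knockout replicate 3, at adjusted p of 0.0743, 0.0686, 0.0515 and 0.0645. The longer form made up 61.0%, 62.1% and 55.5% of the RPKM of Myom1 in controls and 47.0%, 46.8% and 42.0% in labelled knockouts. All labelled knockout libraries lay below all controls, with an exact permutation p of 0.1. Reads of 50 bases that match both forms were shared out by estimation, and the error of that step is not in these tests.

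The forms differ by exon 18 of the longer one, which is 294 bases long, lies within the coding sequence and keeps the reading frame. Its inclusion gives the embryonic heart form of myomesin, which is known to be replaced by the shorter form around birth. It lies at chr17:71082203-71082496 on the plus strand of GRCm38, has 57.1% G and C, and is shown because the transcripts that hold it and lack it moved in opposite directions. The sequence is that of the GRCm38 genome, with exon bounds from the GENCODE annotation, in lower case with no letters marked.
Myom1 exon 18: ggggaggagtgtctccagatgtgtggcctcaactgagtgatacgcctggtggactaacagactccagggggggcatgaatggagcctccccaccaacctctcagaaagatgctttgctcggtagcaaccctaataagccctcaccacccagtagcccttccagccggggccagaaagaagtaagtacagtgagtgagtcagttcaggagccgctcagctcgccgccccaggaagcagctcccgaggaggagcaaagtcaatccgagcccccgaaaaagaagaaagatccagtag

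The 8 core genes of the Z-disc held 2 rises, 2 falls and 4 genes without a call, with a median log2 fold change of 0.06. Rises and falls were 25% each, near the 22.4% of all genes that rose and the 22% that fell. Actn2, the muscle alpha-actinin that cross-links thin filaments in the Z-disc, was at 1384, 1314 and 1453 CPM in controls and 1374, 1336 and 1556 CPM in labelled knockouts. These groups overlapped, and its adjusted p was 0.645 by edgeR. Actn1, the alpha-actinin of non-muscle cells and of stress fibres, was at 103, 113 and 108 CPM against 176, 159 and 171 CPM. All labelled knockouts lay well above all controls, and Actn1 rose (log2 fold change 0.65, SE 0.0489, edgeR adjusted p 3.09e-07). Its share of the RPKM of both alpha-actinins was 5.89% ± 0.476 in controls and 8.69% ± 0.599 in labelled knockouts (SD, n = 3 per group), without overlap and with an exact permutation p of 0.1. The difference was 2.79 percentage points, or 1.70 from the most abundant transcript of each gene alone. Both counted transcripts of Actn1 rose. The fibroblast marker sum given above was higher in the same libraries, and so were Acta2, Cnn1 and Tagln. Of the other smooth muscle markers, 2 were lower and 5 had no call. A link to Actn1 was not tested.

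Tcap, or telethonin, which caps the ends of titin at the Z-disc, was at 39.5, 44.5 and 40.3 CPM in controls and 26.8, 26.7 and 30.4 CPM in labelled knockouts. All labelled knockouts lay below all controls, and Tcap fell (log2 fold change -0.56, SE 0.0696, edgeR adjusted p 2.67e-05). Csrp3 (muscle LIM protein), Myoz2 (calsarcin-1, which binds calcineurin) and Nebl (nebulette) had no call, with log2 fold changes of 0.08, 0.10 and -0.12. Without knockout replicate 1 Myoz2 had an adjusted p of 0.00729, and Nebl had 0.0338 without knockout replicate 2 and 0.0464 without knockout replicate 3, by edgeR.

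Nexn (nexilin, an actin-binding Z-disc protein) rose (log2 fold change 0.15, SE 0.0586, edgeR adjusted p 0.0498), at 195, 202 and 233 CPM against 239, 225 and 236 CPM. Its groups overlapped. The call of Nexn was lost without control replicate 1 (0.236), control replicate 2 (0.166), knockout replicate 1 (0.112) or knockout replicate 3 (0.111) as edgeR's adjusted p, and the log2 fold change ran from 0.10 without control replicate 1 to 0.24 without control replicate 3. It was lost too with the Y-linked covariate (0.135), robust dispersion (0.0509) and counts thinned to the smallest library (0.0744). Synpo2l, a synaptopodin-like actin-bundling protein, was at 343, 341 and 373 CPM in controls and 316, 286 and 340 CPM in labelled knockouts. It fell narrowly (log2 fold change -0.17, SE 0.0602, edgeR adjusted p 0.0401). The call of Synpo2l was lost without control replicate 1 (0.0634), control replicate 3 (0.169), knockout replicate 1 (0.0662) or knockout replicate 2 (0.144, with a log2 fold change of -0.11), and with the Y-linked level as a covariate (0.383) or in the libraries of mixed sex (0.357). The Z-disc core thus held 1 to 2 rises and 1 to 3 falls when single libraries were left out.

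Among the 5 PDZ-LIM genes 3 rose and 1 fell, where 22.4% of all genes rose and 22% fell. PDZ-LIM proteins bind alpha-actinin through a PDZ domain and kinases through LIM domains. Ldb3, which encodes cypher or ZASP, the most abundant of them in controls, was at 966, 924 and 1011 CPM in controls and 713, 700 and 764 CPM in labelled knockouts. It was lower in 3 of 3 labelled knockouts and fell (log2 fold change -0.41, SE 0.0506, edgeR adjusted p 2.46e-05). Of its 6 counted transcripts 5 fell. The call of 1 of these, NM_001039071, was lost without control replicate 2 (0.052) and knockout replicates 1 (0.067), 2 (0.0766) and 3 (0.0546) in turn, as edgeR adjusted p.

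Pdlim3 (ALP, the actinin-associated LIM protein) was at 74.4, 89.8 and 70.9 CPM in controls and 154, 127 and 134 CPM in labelled knockouts. The groups lay far apart, and it rose (log2 fold change 0.83, SE 0.0855, edgeR adjusted p 5.16e-06); in the libraries of mixed sex the log2 fold change was 0.54. Pdlim5 (enigma homolog, a scaffold for protein kinases) was at 604, 584 and 631 CPM against 759, 780 and 831 CPM. It rose without overlap (log2 fold change 0.38, SE 0.0488, edgeR adjusted p 3.73e-05). Pdlim7 (enigma) was at 43.6, 44.1 and 43.5 CPM against 62.3, 52.1 and 56.6 CPM and rose (log2 fold change 0.39, SE 0.0645, edgeR adjusted p 0.000299). Its exons overlap Mir6945. Pdlim1 (elfin), at 53.0 to 63.5 CPM in controls and 56.7 to 65.9 CPM in labelled knockouts, had no call (edgeR adjusted p 0.504).

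The make-up of the PDZ-LIM family differed accordingly. Ldb3 held 44.4% ± 0.845 of the summed RPKM of the 5 genes in controls and 29.5% ± 0.633 in labelled knockouts (SD, n = 3 per group). Pdlim5 held 34.1% ± 0.566 and 42.5% ± 1.52, Pdlim3 8.78% ± 1.36 and 14.1% ± 1.47, and Pdlim7 5.83% ± 0.223 and 7.46% ± 0.517. The shares of these 4 genes did not overlap between the groups, each with an exact permutation p of 0.1, and those of Pdlim1 did. Pdlim5 was thus the most abundant of the family in every labelled knockout library and Ldb3 in every control library. The plot of paralog shares shows these orders by library.

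**Figure D3:**
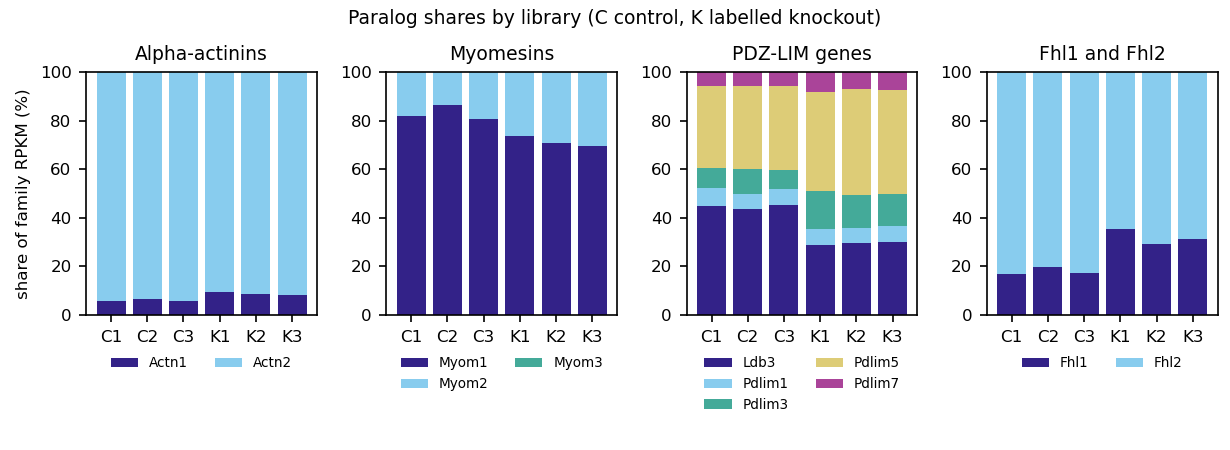
Share of each paralog in the summed RPKM of its family (y axis, percent) in control libraries C1 to C3 and labelled knockout libraries K1 to K3, for the alpha-actinins, the myomesins, the PDZ-LIM genes, and Fhl1 with Fhl2. The share of Ldb3 was 44.4% in the mean control and 29.5% in the mean labelled knockout, and that of Fhl1 was 18.0% and 32.0%.

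The partners of titin's spring region held the greatest rise of the members. Ankrd1, or CARP, an ankyrin repeat protein that binds titin's N2A region and also acts in the nucleus, was at 525, 516 and 694 CPM in controls and 1466, 1542 and 1834 CPM in labelled knockouts (mm10 chromosome 19, 36111965 to 36119844, minus strand). The lowest labelled knockout was above the highest control by more than the spread within either group. Ankrd1 rose 2.79-fold (log2 fold change 1.48, SE 0.108, edgeR adjusted p 2.13e-07), and kept its call under each of the 16 alternatives tried. Ankrd23, or DARP, of the same family, was at 24.2, 25.1 and 28.3 CPM against 16.8, 17.9 and 21.4 CPM. It fell (log2 fold change -0.48, SE 0.0949, edgeR adjusted p 0.00123); the adjusted p was 0.0724 with the Y-linked level as a covariate and 0.075 in the libraries of mixed sex. Ankrd2, known from skeletal muscle, had 4, 1 and 1 counts in controls and 4, 0 and 0 in labelled knockouts and was not tested. The share of Ankrd23 in the RPKM of the 3 ankyrin repeat genes was 3.34% ± 0.288 in controls and 0.880% ± 0.00733 in labelled knockouts (SD, n = 3 per group), with an exact permutation p of 0.1. The difference was -2.46 percentage points, or -1.15 from the most abundant transcript of each gene alone.

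Fhl1 and Fhl2, four-and-a-half LIM proteins that bind titin's N2B region, moved in opposite directions. Fhl1 was at 148, 171 and 154 CPM in controls and 266, 227 and 244 CPM in labelled knockouts. Fhl2, known as the form of the heart, was at 450, 423 and 454 CPM against 300, 345 and 331 CPM. Neither gene overlapped between the groups: Fhl1 rose (log2 fold change 0.65, SE 0.0629, edgeR adjusted p 3.24e-06), with each of its 4 counted transcripts higher. Among these NM_010211 lost its call with the replicate block (edgeR adjusted p 0.0602), and without control replicates 1 (0.0574) and 2 (0.0631) and knockout replicates 1 (0.0849), 2 (0.0877) and 3 (0.0501). NM_001077361 lost it without control replicate 3 (0.0504) and knockout replicates 1 (0.0535) and 3 (0.0507). Fhl2 fell (log2 fold change -0.45, SE 0.0537, edgeR adjusted p 2.16e-05). The share of Fhl1 in the RPKM of both was 18.0% ± 1.71 in controls and 32.0% ± 3.31 in labelled knockouts (SD, n = 3 per group), without overlap and with an exact permutation p of 0.1. Fhl1 lies on the X chromosome and kept its call with the Y-linked level as a covariate.

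Of the Fhl2 transcripts, the one from the distal start was called. NM_001289533 had 6379, 4427 and 6881 estimated counts in controls and 7331, 3773 and 4914 in labelled knockouts, and fell (log2 fold change -0.63, SE 0.0689, edgeR adjusted p 0.000776). NM_010212, from the proximal start, had no call (log2 fold change 0.22, SE 0.098, edgeR adjusted p 0.166). The distal transcript made up 83.5%, 83.6% and 87.3% of the RPKM of Fhl2 in controls and 74.9%, 75.2% and 76.9% in labelled knockouts. These shares did not overlap, with an exact permutation p of 0.1. The difference between the log2 fold changes of the transcripts was itself tested only as this share.

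The 250 bases before the starts of Ankrd1 and of both Fhl2 transcripts are shown because these genes carried the greatest rise and a fall called for 1 of the starts of a gene. They are RefSeq GRCm38.p6 sequences, read on the minus strand, at chr19:36119845-36120094 for Ankrd1, chr1:43196762-43197011 for the distal and chr1:43163962-43164211 for the proximal start of Fhl2. Capitals mark matches to motifs searched on both strands. In Ankrd1 these are M-CAT elements (CATTCC, bound by TEAD factors; here as GGAATG) whose first bases lie 210 and 123 bases before the start, and a GATA element (AGATAA; here TTATCT) at 47. The distal Fhl2 window has a CArG box (bound by SRF) at 96, a GATA element at 62 and a MEF2 element at 31 bases before the start, and the proximal window a CArG box at 31.
Ankrd1: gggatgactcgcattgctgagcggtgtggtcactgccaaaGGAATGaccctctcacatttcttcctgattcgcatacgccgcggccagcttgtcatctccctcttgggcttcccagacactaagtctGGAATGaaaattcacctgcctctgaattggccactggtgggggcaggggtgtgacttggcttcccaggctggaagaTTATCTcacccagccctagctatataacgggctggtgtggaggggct
Fhl2 distal: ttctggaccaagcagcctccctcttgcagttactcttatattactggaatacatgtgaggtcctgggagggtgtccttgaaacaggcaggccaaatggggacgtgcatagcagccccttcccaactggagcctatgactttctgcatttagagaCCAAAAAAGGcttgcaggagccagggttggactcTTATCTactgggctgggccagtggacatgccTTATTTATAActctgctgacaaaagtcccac
Fhl2 proximal: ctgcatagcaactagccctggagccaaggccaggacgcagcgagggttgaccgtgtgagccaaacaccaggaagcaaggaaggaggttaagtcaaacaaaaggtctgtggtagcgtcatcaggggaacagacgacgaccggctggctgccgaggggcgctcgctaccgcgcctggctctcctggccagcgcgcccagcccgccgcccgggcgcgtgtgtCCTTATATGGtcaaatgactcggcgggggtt

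**Figure D4:**
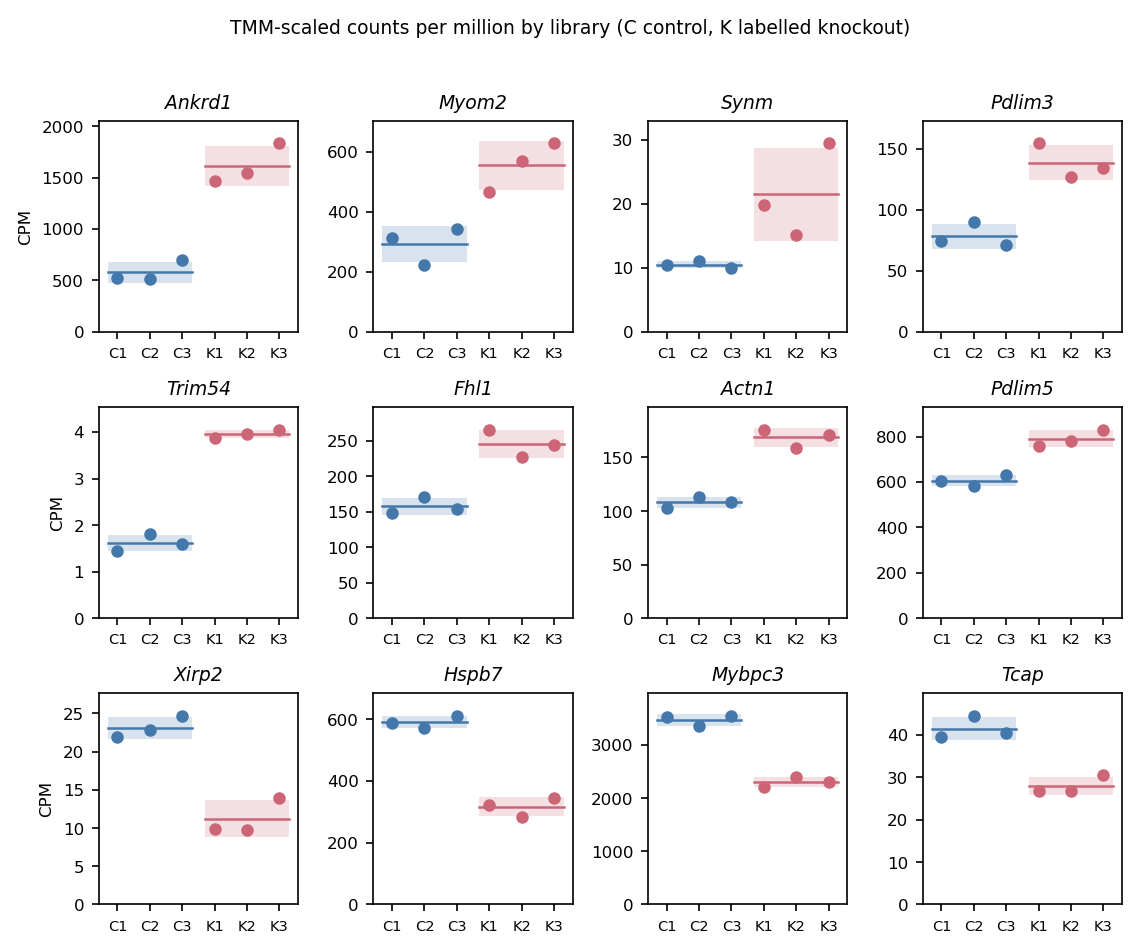
TMM-scaled CPM (y axis, from 0) of 12 members in control libraries C1 to C3 (blue) and labelled knockout libraries K1 to K3 (red); lines are group means and bands are 1 SD, and the genes were picked as examples after their values were seen. The groups do not overlap in any panel, as for Ankrd1 with 516 to 694 CPM in controls and 1466 to 1834 CPM in labelled knockouts.

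All 3 genes of the Xin and filamin compartment fell, beside 22% of all genes. Xirp2, a Xin repeat protein of Z-discs and intercalated discs, was at 21.9, 22.8 and 24.7 CPM in controls and 9.93, 9.78 and 14.0 CPM in labelled knockouts (mm10 chromosome 2, 67446002 to 67526606, plus strand). All labelled knockouts lay far below all controls, and Xirp2 fell 2.07-fold (log2 fold change -1.05, SE 0.119, edgeR adjusted p 1.26e-05). Its share in the RPKM of both Xin genes was 3.26% ± 0.0343 in controls and 1.87% ± 0.279 in labelled knockouts (SD, n = 3 per group), with an exact permutation p of 0.1. Its transcript NM_001083919 fell (log2 fold change -1.34, SE 0.146, edgeR adjusted p 0.000757), while NM_001024618 had -0.58 (SE 0.287) and no call.

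Xirp1, or Xin, was at 320, 326 and 359 CPM against 292, 261 and 307 CPM and fell (log2 fold change -0.23, SE 0.0607, edgeR adjusted p 0.00911). Flnc, the muscle filamin that binds Xin and the Z-disc, was at 861, 865 and 899 CPM against 789, 697 and 818 CPM, and fell (log2 fold change -0.19, SE 0.0575, edgeR adjusted p 0.0179). Neither gene overlapped between the groups, but the falls were small. Without control replicate 3 both calls were lost, at adjusted p of 0.0522 for Xirp1 and 0.0677 for Flnc, which left 1 of 3 genes called. Flnc also lost its call without knockout replicate 2, at 0.0776 and a log2 fold change of -0.13, and both genes lost it with the Y-linked level as a covariate, at 0.166 and 0.168, and in the libraries of mixed sex, at 0.114 and 0.115.

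The 250 bases before the start of Xirp2 are shown for the gene with the deepest fall among those above 1 CPM in every library. The RefSeq GRCm38.p6 window lies at chr2:67445752-67446001 on the plus strand, and its capitals mark a MEF2 element whose first base is 74 bases before the start.
Xirp2: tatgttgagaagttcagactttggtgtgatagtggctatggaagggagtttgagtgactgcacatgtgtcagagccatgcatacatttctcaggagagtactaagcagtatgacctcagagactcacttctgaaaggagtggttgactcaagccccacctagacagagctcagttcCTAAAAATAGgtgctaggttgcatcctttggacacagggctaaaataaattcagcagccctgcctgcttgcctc

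The desmin and costamere genes held 2 rises and 1 fall among 4 genes, where 22.4% of all genes rose and 22% fell. Des, the intermediate filament protein that encircles Z-discs, was at 696, 666 and 670 CPM in controls and 458, 497 and 568 CPM in labelled knockouts. All labelled knockouts lay below all controls, and Des fell (log2 fold change -0.42, SE 0.0661, edgeR adjusted p 0.00022). Synm, or synemin, which joins desmin into filaments and is also made in smooth muscle, was at 10.5, 11.1 and 9.90 CPM against 19.8, 15.1 and 29.4 CPM. The controls were close together while the labelled knockouts were spread, and Synm rose 2.07-fold (log2 fold change 1.05, SE 0.19, edgeR adjusted p 0.000626). With the Y-linked level as a covariate its adjusted p was 0.0556, above the threshold. Of the smooth muscle markers given above, Acta2, Cnn1 and Tagln were higher in every labelled knockout than in any control. Rgs5 and Pdgfrb were lower, and Myh11 had no call. A link to Synm was not tested. Cmya5, or myospryn, a desmin-binding costamere protein, was at 402, 380 and 403 CPM against 449, 515 and 508 CPM and rose without overlap (log2 fold change 0.31, SE 0.054, edgeR adjusted p 0.000439). Smpx (Chisel), a small costamere protein, had no call at 340 to 348 against 306 to 352 CPM. Exons of Des, Synm and Cmya5 overlap Gm15179, Ttc23 and A630019I02Rik on the opposite strand. The sources used here do not give whether counting used the strand, and reads of these overlapping pairs cannot be separated.

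All 3 chaperone genes fell, beside 22% of all genes. Hspb7, a cardiac small heat shock protein that binds filamin C and thin filaments, was at 587, 573 and 610 CPM in controls and 321, 283 and 346 CPM in labelled knockouts. All labelled knockouts lay far below all controls, and Hspb7 fell 1.86-fold (log2 fold change -0.90, SE 0.0629, edgeR adjusted p 1.45e-07). It kept its call under each of the 16 alternatives tried.

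Cryab, the alpha-B crystallin that protects desmin and titin, was at 332, 306 and 346 CPM against 250, 259 and 302 CPM. It fell (log2 fold change -0.28, SE 0.0666, edgeR adjusted p 0.00419). Bag3, the co-chaperone that clears damaged filamin at the Z-disc, was at 38.0, 33.2 and 41.0 CPM against 29.4, 24.9 and 30.9 CPM. It fell (log2 fold change -0.40, SE 0.0881, edgeR adjusted p 0.00276). The groups of both genes were close but did not overlap. Both calls were lost with the Y-linked level as a covariate, at adjusted p of 0.263 for Cryab and 0.273 for Bag3, where their log2 fold changes were -0.16 and -0.22. In the libraries of mixed sex the adjusted p were 0.32 and 0.199. Exons of Cryab overlap Hspb2 on the opposite strand, which had no call. Of the 3 tested Cryab transcripts NM_009964 fell (log2 fold change -0.76, SE 0.0923, edgeR adjusted p 0.00123), and it made up 11.2% of the RPKM of Cryab in the mean control and 8.03% in the mean labelled knockout.

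The MuRF ligases, RING-finger proteins of striated muscle that mark muscle proteins for breakdown, all rose, but by very different amounts. Of all genes 22.4% rose. Trim54 (MuRF3) was at 1.45, 1.81 and 1.59 CPM in controls and 3.88, 3.95 and 4.05 CPM in labelled knockouts. The groups were far apart on a low level, and it rose 2.46-fold (log2 fold change 1.30, SE 0.167, edgeR adjusted p 3.9e-05). Trim55 (MuRF2) was at 240, 242 and 248 CPM against 254, 267 and 269 CPM (log2 fold change 0.11, SE 0.0388, edgeR adjusted p 0.0312). Trim63 (MuRF1) was at 136, 130 and 135 CPM against 140, 147 and 147 CPM (log2 fold change 0.11, SE 0.0399, edgeR adjusted p 0.0379).

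These last calls were not stable. Trim55 lost it when control replicates 1, 2 and 3 and knockout replicates 2 and 3 were left out in turn, at adjusted p of 0.119, 0.0815, 0.0523, 0.0956 and 0.131 by edgeR. Trim63 lost it without the same libraries, at 0.0649, 0.138, 0.0692, 0.0985 and 0.138, so that 1 of the 3 ligases, Trim54, was called in each of these fits. By DESeq2 the adjusted p were 0.0659 and 0.119, with the Y-linked covariate 0.167 and 0.0686, and in the libraries of mixed sex 0.103 and 0.065. Within the MuRF genes, Trim54 held 0.507% ± 0.0604 of the summed RPKM in controls and 1.14% ± 0.0174 in labelled knockouts (SD, n = 3 per group), with an exact permutation p of 0.1. The shares of Trim55 and Trim63 overlapped between the groups.

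Transcripts were counted apart for 18 members with at least 2 transcripts of a mean of at least 10 estimated counts. Of 54 such transcripts tested, 12 rose and 13 fell by edgeR, beside 22.7% of all transcripts called, and without knockout replicate 3 there were 7 rises. The alternatives on sex were not run on transcripts. Besides Myom1 and Fhl2, the make-up is described for Mylk3 and Pdlim5, picked after their values were seen. In Pdlim7 the share of NM_001114088 also differed without overlap, by -5.90 percentage points. Shares in Ldb3, Actn1, Cryab, Smpx and Ttn did so by smaller amounts. In all, 23 of 55 listed transcripts had shares without overlap, and this was not counted over all transcripts. The transcript NM_001297612 of Mylk3, from an upstream start, had 135, 162 and 128 estimated counts in controls and 719, 340 and 512 in labelled knockouts. It made up 2.31%, 4.19% and 2.17% of the RPKM of Mylk3 in controls and 6.13%, 6.26% and 6.76% in labelled knockouts, and rose (log2 fold change 1.34, SE 0.209, edgeR adjusted p 0.00381). The main transcript NM_175441 had a log2 fold change of 0.11 (SE 0.0583) and no call. In Pdlim5, NM_001190857 (1995 bases), 1 of its short transcripts, rose (log2 fold change 0.87, SE 0.0978, edgeR adjusted p 0.00091). It held 29.6%, 37.5% and 35.7% of the gene's RPKM in controls and 45.7%, 44.2% and 47.3% in labelled knockouts. NM_022554 (2010 bases), with the same start and end, had no call (log2 fold change -0.10, SE 0.113, edgeR adjusted p 0.617). Its share was 23.2% in the mean control and 16.0% in the mean labelled knockout, without overlap. Reads that match both were shared out by estimation, as for Myom1.

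Both transcripts of Ttn were called. NM_028004 (81931 bases) fell (log2 fold change -0.27, SE 0.0488, edgeR adjusted p 0.00705), as did NM_011652 (101674 bases; -0.16, SE 0.0473, edgeR adjusted p 0.0471). NM_011652 lost its call in 5 of the 6 fits that left out a library, controls 1, 2 and 3 and knockouts 2 and 3, at 0.112, 0.0817, 0.108, 0.0643 and 0.0528, and without knockout replicate 1 its log2 fold change was -0.11. The share of NM_028004 in the RPKM of Ttn was 51.3%, 51.4% and 51.2% in controls and 49.3%, 49.5% and 49.4% in labelled knockouts, a small but non-overlapping difference with an exact permutation p of 0.1.

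**Figure D5:**
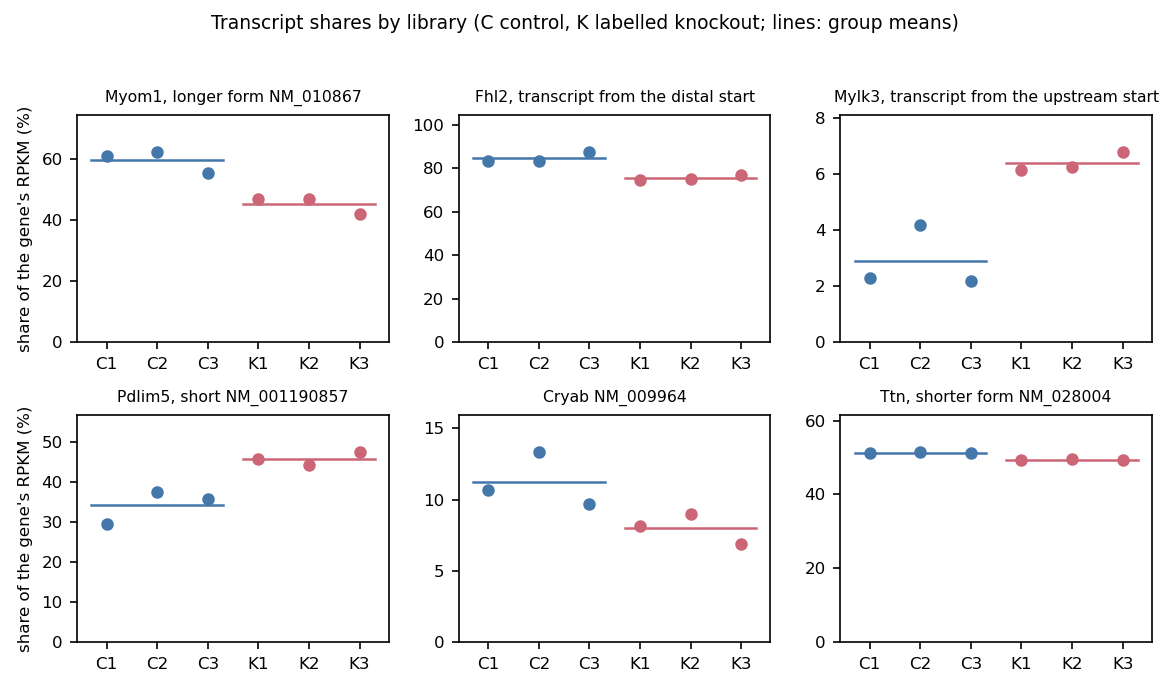
Share of 1 transcript in the summed RPKM of its gene (y axis, percent, from 0) in control libraries C1 to C3 and labelled knockout libraries K1 to K3 for 6 members; lines are group means, and the panels were picked after their values were seen. The longer Myom1 form lies at 55.5% to 62.1% in controls and 42.0% to 47.0% in labelled knockouts.

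Promoter windows were searched for 5 motifs bound by factors known in heart muscle. RefSeq start sites gave 45 windows of 250 bases for 33 members, and Myom2, Xirp1, Tcap, Cryab, Nexn and Trim55 had no entry. The extended element of the estrogen-related receptors, TNAAGGTCA, occurred in 0 of the 45 windows and in 1.14% of 32851 mouse windows. MEF2 elements, bound by the MEF2 factors of muscle, were in 8 of the 45 windows (17.8%) and in 2.92% of all. They were found in 6 of 13 members that fell (Ttn, Mybpc3, Myom3, Synpo2l, Fhl2 and Xirp2), in 0 of 11 that rose and in 1 of 8 without a call, Myoz2 (Ankrd2, not tested, is in none of these groups). M-CAT elements were in 17.8% of member windows and 12.6% of all, and in 5 of 11 members that rose (Mylk3, Pdlim3, Ankrd1, Trim54 and Trim63) against 2 of 13 that fell and 1 of 8 without a call. These counts are by gene and not by start. The M-CAT elements of Mylk3 and Ankrd23 lie before the starts of NM_175441 and NM_153502, transcripts that had no call. CArG boxes were in 15.6% of member windows and 1.47% of all, in 1 of 11 members that rose, 2 of 13 that fell and 2 of 8 without a call. Of the 7 windows with a CArG box, 2 are overlapping windows of Ldb3 that hold the same box. GATA elements were in 20% and 9.99%, in 3 of 11, 2 of 13 and 3 of 8. No 2 motifs overlapped in a member window. A match is a string of letters and does not show binding, and a window without one says nothing of the factor. The counts by direction were not made over all genes, so no share stands beside them. Of the matched members named, Mylk3, Trim63, Ttn and Synpo2l lost their calls in alternatives given above.

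A list of 13 regulators of muscle genes, all in the table, holds factors that bind these motifs. Of these 4 rose and 4 fell (median log2 fold change 0.04), beside 22.4% and 22% of all genes. With the Y-linked covariate 2 falls were left, where 12.6% of all genes were lower. Tead1, which binds M-CAT elements, rose from 350.9 ± 9.01 to 465.5 ± 9.47 CPM (SD, n = 3 per group; edgeR adjusted p 3.83e-06), and its coactivator Yap1 from 98.8 ± 1.15 to 135.3 ± 9.05 CPM (edgeR adjusted p 8.83e-06). Mef2c fell from 166.1 ± 9.68 to 138.8 ± 1.66 CPM and Mef2d from 149.1 ± 11.0 to 128.7 ± 5.87 CPM, with adjusted p of 0.000476 and 0.00647 by edgeR. Mef2d lost its call with the Y-linked covariate (0.492) and in the libraries of mixed sex (0.353). Srf had no call, and its coactivator Myocd fell (log2 fold change -0.18, edgeR adjusted p 0.00214). Links between these genes and the members were not tested.

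Other genes of the same structures were read from a list of 46 further Z-disc, M-band, thin filament and costamere genes. Of these 42 were tested, 21 rose and 6 fell (median log2 fold change 0.22), beside 22.4% and 22% of all genes, and 12 rose with the Y-linked level as a covariate, where 11.8% of all genes did. By adjusted p the rises were led by Nes (nestin, an intermediate filament protein of immature muscle), from 106.3 ± 3.22 to 217.3 ± 19.3 CPM, Krt8 and Krt18 (simple keratins, with log2 fold changes of 1.82 and 1.25), Csrp1 (a LIM protein abundant in smooth muscle, 0.61), Pgm5 (a costamere protein, 0.44) and Actn4 (a non-muscle alpha-actinin, 0.42). Among the falls were Speg, Tmod1, Ky, Nrap and Plec. With the Y-linked covariate Nrap (0.0573) and Plec (0.136) lost their calls by edgeR adjusted p, as they did in the libraries of mixed sex (0.0612 and 0.136), and Plec also without control replicate 1 (0.0547) or knockout replicate 2 (0.075). Some of the rising genes, among them Krt18 and Csrp1, are made in other cells than heart muscle. The fibroblast and epicardial marker sums given above were higher in the same libraries, and the endothelial sum was lower. A link between these sums and the genes was not tested.

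Of 27 further chaperones and ligases, all tested, 6 rose and 11 fell (median log2 fold change 0.03), beside 22.4% and 22% of all genes. Under the Y-linked covariate 3 of them rose and 3 fell, beside 11.8% and 12.6% of all genes. The falls were led by Asb2 (a ligase that targets filamins, log2 fold change -0.48, adjusted p 1.91e-06 by edgeR), Unc45b (the myosin chaperone, -0.44), Hspb8 (the partner of Bag3, -0.41) and Fbxo32 (atrogin-1, -0.30). Fbxo32 lost its call with the Y-linked covariate (edgeR adjusted p 0.224) and in the libraries of mixed sex (0.23). Klhl41, which stabilises nebulin, rose with a log2 fold change of 0.42, and Hsp90ab1, the constitutive HSP90, with 0.23. The number of falls was 6 without control replicate 1 and 7 without control replicate 3 or knockout replicate 1.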

How the data were processed

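The authors deposited estimated counts per transcript, which need not be whole, and RPKM values scaled by transcript length and library total, per the file headers, and the percent of each library's reads in exons and introns. The submitters' processing notes name the mm10 build, TopHat2 2.0, Partek 6.6 and DESeq; the role of each tool is not given in the sources used here. Per the labels' protocols, libraries were ribosomal-RNA-depleted, stranded total RNA, with 50-base single-end reads; the same protocols also name a TruSeq RNA kit without strand, and which kit was used is not settled by them.

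Estimated counts of 30031 transcripts were summed per symbol and rounded (94.5% of sums lay within 0.01 of a whole number); 58 symbols turned into dates were restored. Gene totals put 3 counts, the floor, at 0.0918 to 0.234 CPM, which covers counting error alone, because copies made by PCR were not marked by molecular identifiers. edgeR 4.0.16 in R 4.3.3 was used (quasi-likelihood, TMM, filterByExpr with minimum count 10 and total 15, two-sided, Benjamini-Hochberg over 14290 genes or 21591 transcripts, threshold 0.05) and checked on simulated counts. edgeR's common biological coefficient of variation was 5.58%. CPM values are TMM-scaled, except those of Y-linked genes and Xist. Deposited RPKM values were shifted by 0.16 (log2 median over genes) between groups, so RPKM was compared only as shares or orders within libraries. Exact permutation used SciPy 1.17.1. Alternatives were other scalings, filters, DESeq2 1.42.0, limma-voom (3.58.1), robust dispersion, a replicate block, thinning, a Y-linked covariate, the 3 libraries of mixed sex, and leaving out each library. All 39 members are named; of other lists, up to 6 called genes per direction by adjusted p, apart from 1 gene that is not reported here; of transcripts, called ones first. The members, lists and tests were chosen with earlier results of these data known.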

Additional observations from a re-analysis of the deposited data

How the results depend on the processing

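Of the 30 called members, 18 kept their call under all 16 alternatives, 12 lost it under at least 1 and 0 changed direction; 3 of 8 without a call gained one (Lmod2, Myoz2, Nebl). The cause of these changes was not tested, except that leaving out libraries leaves fewer samples. The sex alternatives moved most counts. With the Y-linked covariate 1682 of all genes were higher and 1801 lower, and in mixed-sex libraries alone, where the lone control is assumed to vary like the other group, 1787 and 1858. Members lower were then 9 and 10. By compartment, the Y-linked covariate left 1 lower for titin and filaments, and 1 higher and 1 lower for the Z-disc core. It left 1 lower each for titin spring partners, Xin and filamin, and chaperones, and 1 higher each for desmin genes and MuRF ligases. Mixed-sex libraries alone gave 1 lower for the Z-disc core, spring partners, Xin and filamin, and chaperones, and 1 higher for the MuRF ligases, as did DESeq2 for the last. Other sarcomere genes higher were 12 with the covariate; other chaperones were 3 higher and 3 lower, and regulators 2 lower, in both. Titin and filaments had 2 higher without a filter. Robust dispersion or thinning left 1 higher in the Z-disc core.

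The replicate numbers did not pair the libraries (correlations of same-numbered libraries -0.006, -0.015 and 0.104). With the replicate number as a block, 3228 genes were higher and 3182 lower, members 15 and 17, and titin and filaments 2 higher; not every library correlated best with its own number.

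With the most abundant transcript alone, share differences (labelled knockout minus control, percentage points) were 1.70 for Actn1, -1.70 for Actn2, -21.6 for Myom1, 21.7 for Myom2, -0.0744 for Myom3, 1.18 for Ankrd1, -1.15 for Ankrd23, -16.0 for Ldb3, -2.96 for Pdlim1, 7.07 for Pdlim3 and 10.7 for Pdlim5.

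Leaving out each library in turn, changes of sign occurred only without a call, and log2 fold changes ran from -0.035 to 0.08 for Actn2, -0.001 to 0.122 for Pdlim1, -0.094 to 0.014 for Smpx, -0.222 to 0.653 for NM_001190853, -0.18 to 0.023 for NM_022554, -0.056 to 0.146 for NM_001114088 and -0.156 to 0.054 (with 0.000 without control replicate 3) for NM_175132. The same fits gave 2636 to 3060 genes higher and 2683 to 3052 lower, 10 to 14 members higher and 13 to 17 lower, 7 to 10 member transcripts higher and 10 to 14 lower, and 6 to 10 other chaperones and ligases lower. By compartment they gave 0 to 2 higher for titin and filaments, 1 to 2 higher and 1 to 3 lower for the Z-disc core, 1 to 3 lower for Xin and filamin, and 1 to 3 higher for the MuRF ligases. Depth limits Myom3 and Ankrd2, with at most 27 counts in a library. Trim54 was also scarce, with 25, 23 and 28 counts in controls and 130, 59 and 80 in labelled knockouts.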
